A study of Mus musculus with 4 samples.

Results

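*Cxcl12*, *Cxcr4* and *Ackr3* were followed in cells of the cerebral vasculature of *Angpt2*-WT and *Angpt2*-KO mice. These 3 genes, of 32286 in the count tables, were taken by symbol. CXCL12 is a chemokine that many ECs and stromal cells secrete and that binds heparan sulfate on vessel walls. CXCR4 is the signalling receptor for it, a G protein-coupled receptor that couples to inhibitory G proteins and is known as a gene of endothelial tip cells, the leading cells of a vascular sprout, and as the receptor that holds B cells in bone marrow. ACKR3 is an atypical receptor that binds the same chemokine without classical G protein signalling, takes it up and degrades it, and in that way shapes the gradient that CXCR4 reads.

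Single-cell RNA was counted in PECAM1-selected vascular fragments from the brains of 4 mice aged 3 months, with 1 library per mouse. *Angpt2*-WT mice (WT1, a female, and WT2, a male) carried the *Angpt2*+/+ genotype. *Angpt2*-KO mice (KO1, a female, and KO2, a male) lacked *Angpt2* constitutively, after exon 4 had been removed with a Cre under the widely active Pgk promoter, on a C57BL6/J background. *Angpt2* encodes angiopoietin-2, a ligand of the endothelial receptor TIE2, and because the 3′ counts do not cover the deleted exon specifically, *Angpt2* UMIs in KO libraries (unique molecular identifiers, each 1 captured transcript) do not check the genotype.

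The cells kept (over 500 genes, mitochondrial share of UMIs below 10%) numbered 4043 and 5742 in the WT mice and 2900 and 5314 in the KO mice, with median depths of 4088.5 to 7351.5 UMIs per cell. Of 17966 distinct barcodes, 33 were found in more than 1 library. Clustering, from which the 3 genes and the other genes of their pathway were left out, gave 14328 ECs. Of these, 2974 were arterial, 6305 capillary and 702 venous, and 1525 were cells of a cluster that held 24 and 17 cells of the WT mice against 745 and 739 of the KO mice and is called cluster 4, after the marker genes the study listed for its cluster of that number. *Apln*-positive ECs, those with at least 1 UMI of the tip cell peptide apelin, numbered 39 and 64 in WT1 and WT2 and 398 and 314 in KO1 and KO2 and were kept out of the zones. An EC cluster without a clear zone (2499 cells) was counted in no zone. Its mean scaled level was highest for the capillary marker list (0.553), above the venous list (0.326). Its leading genes held 2 venous markers, *Nr2f2* and *Tmsb10*, and 0 capillary ones. The cluster without a zone stayed among all ECs, among *Apln*-negative ECs, and among the ECs left when cluster 4 was set aside. Mural cells (1289, of which 602 were pericytes), microglia (907) and B cells (274) made up the other classes examined. The marker lists went with these names. In B cells the B-cell list summed to 10300 to 14183 CPM (UMIs of a gene or list relative to all UMIs of that class in 1 mouse, with the total set to 1e+06), against 294 to 700 in every other class. In ECs the leukocyte gene *Ptprc* reached at most 0.757 CPM.

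The 3 genes lie apart. On GRCm38, *Cxcl12* (ENSMUSG00000061353) spans chr6:117168535-117181367 on the plus strand, *Cxcr4* (ENSMUSG00000045382) chr1:128588199-128592293 on the minus strand and *Ackr3* (ENSMUSG00000044337) chr1:90203980-90216751 on the plus strand, and none overlaps another annotated gene in GENCODE vM21. The 250 bases before each start site, from RefSeq on GRCm38.p6, are shown because *Cxcl12* and *Cxcr4* moved together in the comparison below and *Ackr3* did not. Capitals mark ACGTG or GCGTG on either strand, the core letters read by hypoxia-inducible factors.
*Cxcl12* promoter, chr6:117168285-117168534, plus strand: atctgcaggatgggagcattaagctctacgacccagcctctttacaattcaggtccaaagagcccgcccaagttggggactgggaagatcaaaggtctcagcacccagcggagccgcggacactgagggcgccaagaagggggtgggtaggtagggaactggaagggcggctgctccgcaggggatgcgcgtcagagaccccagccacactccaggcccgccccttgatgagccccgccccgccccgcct
*Cxcr4* promoter, chr1:128592300-128592549, minus strand: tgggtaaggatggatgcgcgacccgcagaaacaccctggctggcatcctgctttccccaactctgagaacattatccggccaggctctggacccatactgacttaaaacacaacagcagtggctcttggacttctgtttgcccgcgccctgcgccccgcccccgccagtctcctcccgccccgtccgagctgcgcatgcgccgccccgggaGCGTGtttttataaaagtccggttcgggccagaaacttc
*Ackr3* promoter, chr1:90203730-90203979, plus strand: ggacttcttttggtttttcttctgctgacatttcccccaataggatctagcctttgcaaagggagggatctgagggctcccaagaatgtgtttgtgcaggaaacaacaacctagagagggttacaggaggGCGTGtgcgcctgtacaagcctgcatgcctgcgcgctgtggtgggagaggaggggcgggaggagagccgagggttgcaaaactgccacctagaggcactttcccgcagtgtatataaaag
*Cxcr4* held 1 such site 39 bases before the start site, *Ackr3* held 1 at 120 bases and *Cxcl12* held 0. Of 32851 promoters of this length, 12679 (38.6%) held at least 1, so a match or its absence is a description of the letters alone.

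*Cxcl12*, the ligand, was high in arterial and capillary ECs and low in venous ECs. In capillary ECs its level was 3091 CPM (WT1), 3246 CPM (WT2), 5112 CPM (KO1) and 4898 CPM (KO2). In arterial ECs it was 3179, 3354, 5339 and 4610 CPM in the same order, and these ranges overlapped those of capillary ECs within each genotype. The venous level was far lower, at 256 and 285 CPM in the WT mice and 645 and 698 CPM in the KO mice. In the cluster without a zone, which scored highest for the capillary list, the mean was 989 CPM in WT and 2239 CPM in KO. That cluster is not in the capillary values, and a capillary class that includes it was not tested. Below the arterial and capillary levels came *Apln*-positive ECs (1463 and 686 CPM in WT, 3670 and 3743 CPM in KO), then mural cells (752 and 720 CPM in WT, 2963 and 2350 CPM in KO), which did not lie outside the spread of *Apln*-positive ECs in WT mice but did in KO mice. B cells (413 to 1109 CPM) and microglia (230 to 452 CPM) followed.

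**Figure D1:**
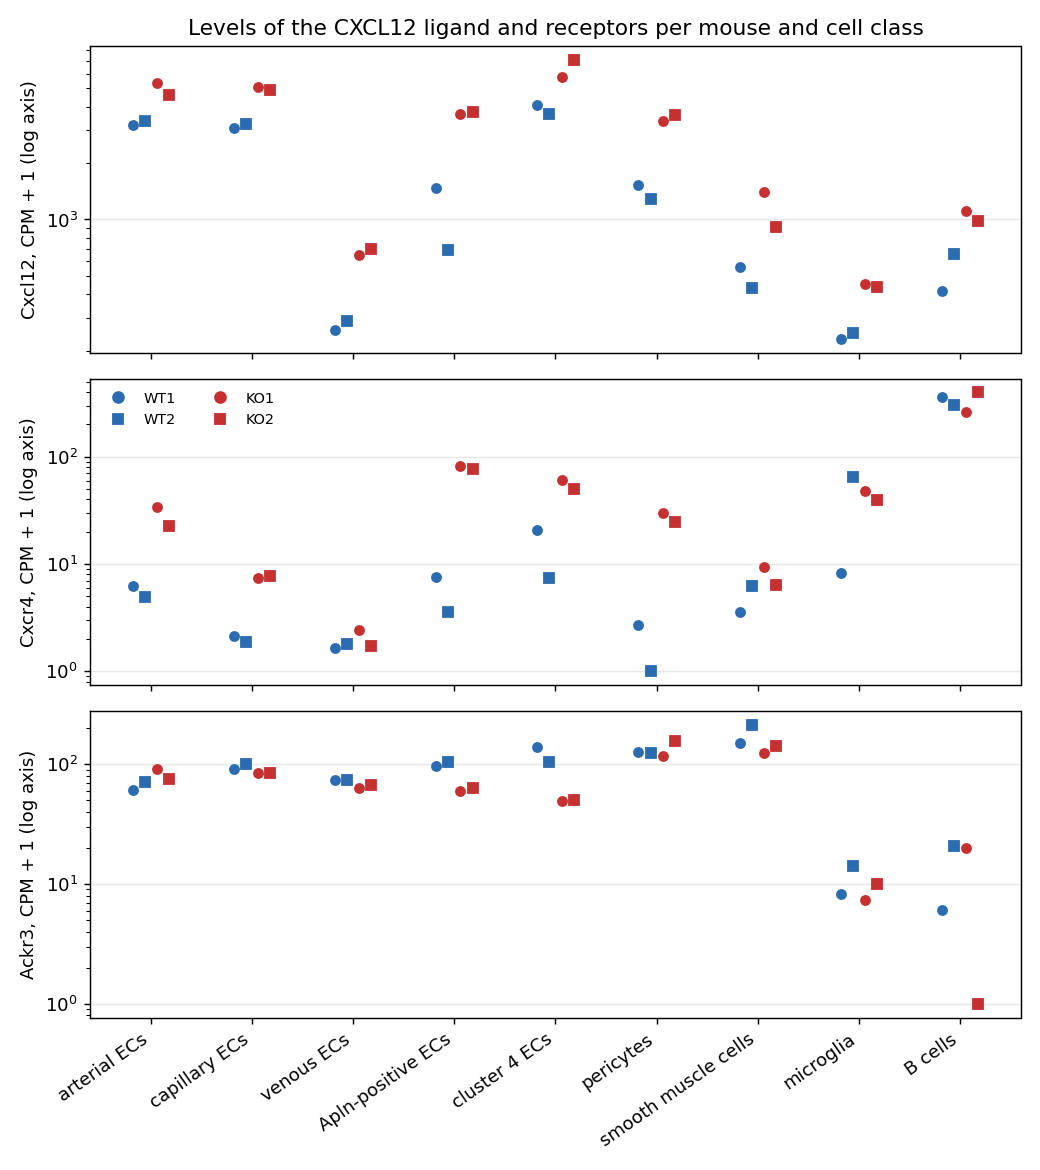
Level of each gene in CPM + 1 on a log axis (y) by cell class (x). Each point is the sum over 1 mouse, with WT mice in blue and KO mice in red. *Cxcl12* was lowest among EC classes in venous ECs (256 to 698 CPM), and *Cxcr4* was highest in B cells (263 to 396 CPM).

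Within each mouse, venous ECs held less *Cxcl12* than capillary ECs in 4 of 4 mice, by 3.27 on the log2 scale below (log2 fold change -3.27, SE 0.11, adjusted p = 3.27e-25, edgeR quasi-likelihood test with the mouse as a block). In that comparison 36.2% of the 10326 genes tested passed the threshold of 0.05 on the adjusted p. *Cxcl12* was not shown to differ between arterial and capillary ECs by this test (log2 fold change -0.03, 95% interval -0.14 to 0.09, adjusted p = 0.724), where 38% of 10476 genes passed. That result depended on the clustering. Over 13 settings the value ranged from -0.43 to 0.01 and passed in 2. It was -0.43 with stress and sex-linked genes kept in the clustering. The zones come from clustering of these same cells by other genes, and a gene that varies along with those genes differs between zones by construction.

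*Cxcr4*, the signalling receptor, was sparse in ECs. All ECs together gave 57 and 54 UMIs of it in WT1 and WT2 and 755 and 392 in KO1 and KO2, or 2.12, 1.55, 32.7 and 17.5 CPM. Arterial ECs held 5.28 and 3.92 CPM in the WT mice and 33.0 and 21.7 CPM in the KO mice. Capillary ECs held 1.15, 0.865, 6.45 and 6.68 CPM, and venous ECs, with 10 UMIs in all, 0.652, 0.812, 1.42 and 0.725 CPM. The cluster without a zone, whose cells were among the deeper ones (medians of 7886 to 11800.5 UMIs), gave 0.107 to 0.905 CPM, and 1 cell held 7 of its 11 UMIs in WT2. Outside the endothelium the highest levels were those of B cells, 358 and 303 CPM in WT and 263 and 396 CPM in KO. Microglia ranged from 7.32 CPM in WT1 to 64.4 CPM in WT2, a spread that covered both KO values of 46.9 and 38.6 CPM. In WT mice the levels in *Apln*-positive ECs (6.65 and 2.57 CPM), arterial ECs and mural cells (2.38 and 3.46 CPM) overlapped in part and have no clear order. In KO mice *Apln*-positive ECs (80.1 and 76.3 CPM) stood above microglia, arterial ECs and mural cells (24.8 and 15.2 CPM), and the ranges of the last 2 overlapped.

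Arterial ECs held more *Cxcr4* than capillary ECs in 4 of 4 mice (log2 fold change 1.95, SE 0.19, adjusted p = 3.23e-11, edgeR). Venous ECs held less than capillary ECs in 4 of 4 mice (-1.38, SE 0.52, adjusted p = 0.0346, edgeR), a difference that rests on the 10 venous UMIs and gave an adjusted p = 0.134 with DESeq2.

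*Ackr3*, the scavenging receptor, was found in every EC zone and in mural cells. Of the 7 classes it was highest in mural cells, at 145 and 180 CPM in the WT mice and 117 and 148 CPM in the KO mice. The EC zones lay close together, with 89.4, 99.7, 82.8 and 82.9 CPM in capillary ECs, 59.2, 69.5, 90.6 and 74.6 CPM in arterial ECs and 72.0, 72.6, 62.5 and 66.0 CPM in venous ECs. The arterial and venous values were lower than the capillary ones by small steps (log2 fold change -0.38, SE 0.08, adjusted p = 1.07e-04, and -0.42, SE 0.10, adjusted p = 6.26e-04, edgeR). The venous step was seen in 4 of 4 mice, the arterial one in 3 of 4, since in KO1 the arterial level was the higher. Microglia (6.30 to 13.1 CPM) and B cells (0 to 19.5 CPM) held *Ackr3* at a level near nothing, with 37 and 15 UMIs in all. The count of 0 in B cells of KO2 allows up to 29.0 CPM.

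**Figure D2:**
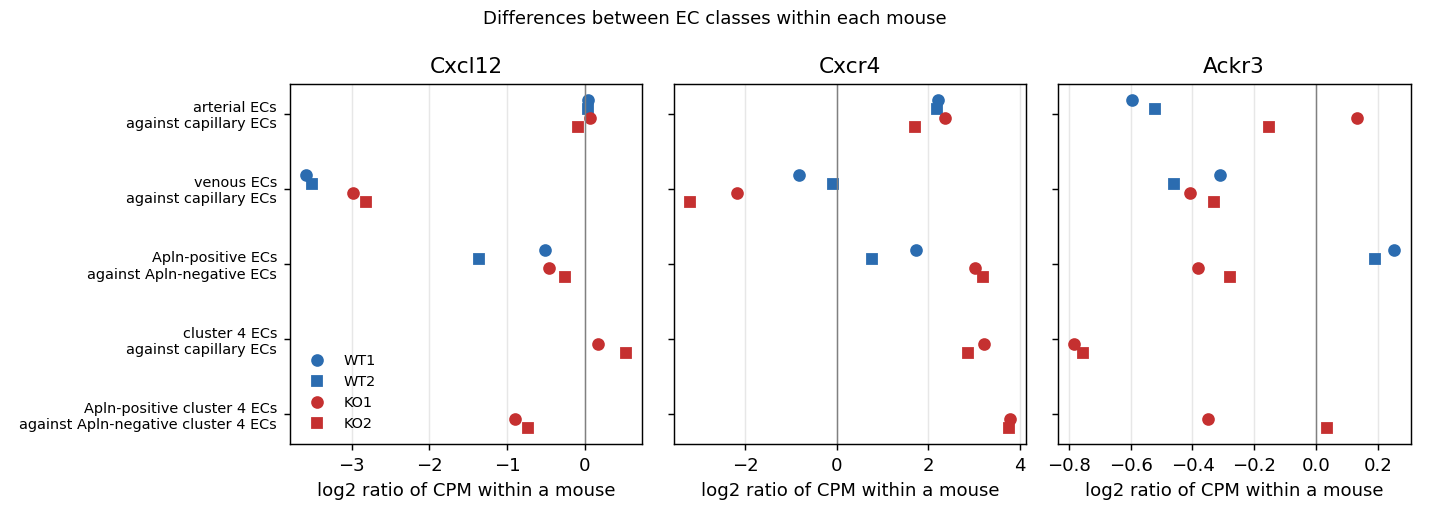
Log2 ratio of CPM between 2 EC classes of the same mouse (x) for each pair of classes (y), with 1 point per mouse. For *Cxcr4* all arterial to capillary ratios were positive, and for *Cxcl12* all venous to capillary ratios were negative. The last 2 pairs show KO mice alone, because WT mice had 24 and 17 cells of cluster 4.

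The comparison of *Angpt2*-KO with *Angpt2*-WT mice asked whether the ligand and its receptors changed in ECs without angiopoietin-2. *Cxcl12* and *Cxcr4* were both higher in KO ECs, and *Ackr3* was not shown to change. *Cxcl12* rose from 2080 and 1727 CPM in the WT mice to 4597 and 4380 CPM in the KO mice, 2.32-fold (log2 fold change 1.22, SE 0.19, adjusted p = 0.00946, edgeR). *Cxcr4* rose 13.6-fold (log2 fold change 3.76, SE 0.32, adjusted p = 0.00176, edgeR), from the 2 WT levels near 2 CPM to 32.7 and 17.5 CPM. Of the 13554 genes tested in all ECs, 5.88% passed. *Ackr3* was at 79.9 and 89.8 CPM in WT and 70.0 and 73.1 CPM in KO (log2 fold change -0.26, 95% interval -0.46 to -0.06, adjusted p = 0.208, edgeR), and so the KO values lay below the WT values without passing. Without WT2 the adjusted p of *Cxcl12* was 0.0526.

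With cluster 4 and *Apln*-positive ECs left out, both rises in ECs remained, with *Cxcl12* at 0.95 on the log2 scale (SE 0.16, adjusted p = 0.0251, edgeR) and *Cxcr4* at 2.46 (SE 0.24, adjusted p = 0.00243, edgeR). The mix of zones also differed. Venous ECs were 4.80 and 7.48% of ECs in WT1 and WT2 and 2.12 and 3.46% in KO1 and KO2. The cluster without a zone was 20.8 and 22.1% against 14.3 and 11.1%. Both held less *Cxcl12* than arterial and capillary ECs. Arterial ECs were 27.4 and 23.3% against 13.7 and 16.3%. The part of this mix in these rises was not tested. In the KO ECs the sum of a list of 21 stress-response genes, which dissociation can induce, was lower, at 10834 and 11119 CPM against 15411 and 15496 CPM in WT, and its part in these results was not tested. The sum of the 7 endothelial marker genes overlapped between the groups (11637 to 12635 CPM in KO, 12061 to 12532 CPM in WT).

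Zone by zone, *Cxcr4* was higher in KO arterial ECs (5.69-fold, log2 fold change 2.51, SE 0.25, adjusted p = 1.74e-04, edgeR), in a comparison where 0.956% of 11299 genes passed. It was higher in KO capillary ECs too (6.45-fold, log2 fold change 2.69, SE 0.40, adjusted p = 0.00655, edgeR), where 1.08% of 11342 genes passed. The capillary rise rests on 13 UMIs in the WT mice and 59 in the KO mice, and no longer passed without WT1 (adjusted p = 0.0942) or without WT2 (adjusted p = 0.173). Venous *Cxcr4*, with 8 UMIs in WT and 2 in KO, was too low to be tested.

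*Cxcl12* was higher in KO venous ECs (log2 fold change 1.23, SE 0.19, adjusted p = 0.00189, edgeR), where 0.363% of 10195 genes passed, and in KO arterial ECs (0.58, SE 0.13, adjusted p = 0.0483, edgeR). Venous ECs numbered 157 and 355 in WT1 and WT2 and 45 and 145 in KO1 and KO2. Their median depths were 16076, 17408, 10791 and 4426 UMIs in the same order. In capillary ECs both KO mice lay above both WT mice but the difference did not pass (0.64, SE 0.17, adjusted p = 0.132, edgeR), while it did with DESeq2 (adjusted p = 1.93e-04). The arterial call is a narrow one and ended without KO1 (adjusted p = 0.440), without KO2 (adjusted p = 0.0751) and with the replicate number as a block (adjusted p = 0.213). The venous call ended without KO2 (adjusted p = 0.0640) and with the block (adjusted p = 0.0557), and with finer clustering the venous difference fell to 0.65 (adjusted p = 0.228). *Ackr3* passed in none of the 3 zones, with a log2 fold change of 0.32 (95% interval 0.07 to 0.58) in arterial, -0.20 (-0.43 to 0.03) in capillary and -0.25 (-0.65 to 0.16) in venous ECs. With cluster 4 counted as capillary, the capillary value was -0.52 (adjusted p = 0.0130).

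In the reported setting the zones were not shown to differ in the size of these changes. The KO effect in arterial ECs minus that in capillary ECs was -0.09 for *Cxcl12*, -0.24 for *Cxcr4* and 0.49 for *Ackr3* on the log2 scale (adjusted p = 0.977, 0.979 and 0.422, edgeR interaction term, 0.0254% of 11819 genes passed). For venous against capillary ECs it was 0.61, -2.47 and -0.03 (adjusted p = 0.769, 0.863 and 0.996), and 0.0517% of 11610 genes passed. With cluster 4 counted as capillary, the arterial difference passed for *Cxcl12* (-0.41, adjusted p = 8.77e-09) and *Ackr3* (0.83, adjusted p = 5.51e-07). Over 13 settings the arterial difference passed in 2 for *Cxcl12*, 2 for *Ackr3* and 0 for *Cxcr4*. The venous difference passed in 1 of 13 for *Cxcl12* and in 0 for the 2 receptors.

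**Figure D3:**
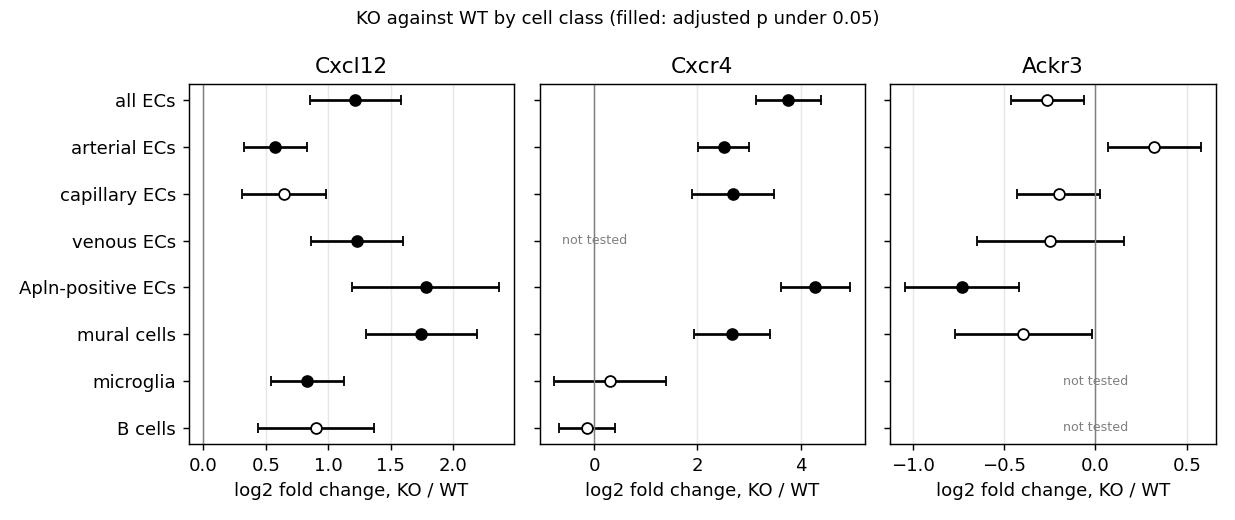
Log2 fold change of KO against WT (x) by cell class (y), with bars of the normal 95% interval over 2 against 2 mice. Filled points passed the adjusted p of 0.05 in edgeR. *Cxcr4* passed in all ECs, arterial, capillary and *Apln*-positive ECs and mural cells, and not in microglia or B cells.

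*Apln*-positive ECs showed a wide gap between the genotypes in *Cxcr4*. The KO mice gave 600 and 229 UMIs of it in this class and the WT mice 4 and 3, and the level rose 19.5-fold (log2 fold change 4.29, SE 0.34, adjusted p = 6.26e-05, edgeR). *Cxcl12* rose as well (log2 fold change 1.78, SE 0.30, adjusted p = 0.00387, edgeR). *Ackr3* fell in the same cells, from 94.7 and 102 CPM in WT to 58.1 and 61.7 CPM in KO (-0.73, SE 0.16, adjusted p = 0.0156, edgeR). In this comparison 8.86% of 10125 genes passed. None of the 3 calls held when either KO mouse was left out. In edgeR 0 of 9508 genes then passed, with 889 without KO1 and 1224 without KO2 at an unadjusted p under 0.05, while the log2 fold changes of *Cxcr4* stayed at 4.24 and 4.32. Nor did they hold in cells thinned to 2000 UMIs, where edgeR called 0 of 3549 genes, with 296 under 0.05 unadjusted, and *Cxcl12* stood at 0.65 and *Cxcr4* at 2.38. There the class was drawn anew from the thinned *Apln* UMIs and held only a part of these cells, so depth and cell choice changed together. The fall of *Ackr3* also ended without WT2 (adjusted p = 0.0710), with DESeq2 (adjusted p = 0.0917) and in cells with at least 3 *Apln* UMIs (adjusted p = 0.433).

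The cells behind this class were not alike in the 2 genotypes. Cluster 4 held 295 of the 398 *Apln*-positive ECs of KO1 and 183 of the 314 of KO2, but 7 of 39 in WT1 and 7 of 64 in WT2, where 22 were venous. A single *Apln* UMI placed 74.4% and 76.6% of the WT cells in the class, against 41.2% and 59.2% of the KO cells. The part of this difference in the comparison was not tested.

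Against the other ECs of the same mouse, *Apln*-positive ECs held more *Cxcr4* in 4 of 4 mice (log2 fold change 2.99, SE 0.14, adjusted p = 4.28e-14, edgeR) and less *Cxcl12* in 4 of 4 (-0.63, SE 0.11, adjusted p = 2.96e-04, edgeR). *Ackr3* was lower in the KO mice and higher in the WT mice (-0.12, 95% interval -0.29 to 0.04, adjusted p = 0.410, edgeR). Here 10.5% of 11299 genes passed. The difference in *Cxcl12* did not pass with DESeq2 (adjusted p = 0.156) or in thinned cells with both classes drawn anew (adjusted p = 0.0641, edgeR). That in *Ackr3* passed with at least 3 *Apln* UMIs (-0.40, adjusted p = 0.00288, edgeR).

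Cluster 4 itself could be compared with capillary ECs only in the 2 KO mice. Its *Cxcr4* level was 59.9 CPM in KO1 and 48.6 CPM in KO2, above the capillary 6.45 and 6.68 CPM (log2 fold change 2.97, SE 0.19, adjusted p = 1.62e-50, edgeR), and its *Ackr3* level was 48.1 and 49.2 CPM, below the capillary 82.8 and 82.9 CPM (-0.79, SE 0.13, adjusted p = 1.99e-07, edgeR). *Cxcl12* was at 5752 and 7102 CPM and did not pass (0.34, SE 0.18, adjusted p = 0.170, edgeR). In this comparison 25.6% of 10025 genes passed.

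The *Cxcr4* of cluster 4 was held mostly by its *Apln*-positive cells. They gave 106 and 123 CPM in KO1 and KO2, and the *Apln*-negative cells of the same cluster 7.68 and 9.18 CPM (log2 fold change 3.81, SE 0.15, adjusted p = 1.46e-140, edgeR). *Cxcl12* ran the other way, at 4091 and 4958 CPM in the *Apln*-positive and 7639 and 8234 CPM in the *Apln*-negative cells (-0.78, SE 0.04, adjusted p = 6.44e-96, edgeR). *Ackr3* was at 42.7 and 50.0 CPM against 54.3 and 48.8 CPM and did not pass (-0.17, 95% interval -0.41 to 0.06), although it did in the 2 other clusterings tried (-0.36 and -0.32). In this comparison 15.2% of 9665 genes passed, and the very small p-values come from 2 mice with a spread that the model shares over genes.

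The share of cells with a UMI depends on depth as well as level, and the genes differed in how far it moved with the level. *Cxcr4* was found in 1.28% and 0.842% of ECs of the WT mice (exact 95% binomial intervals 0.928 to 1.73% and 0.603 to 1.15%), and in 7.96% and 3.63% of those of the KO mice (6.84 to 9.19% and 3.08 to 4.24%). Both KO shares lay above both WT shares, also after each cell was thinned to 2000 UMIs (0.456, 0.168, 2.65 and 2.18%), and with 2 against 2 mice the smallest two-sided exact permutation p is 0.33, so no share could pass. The cluster without a zone, at greater depth, had *Cxcr4* UMIs in 0.147 to 0.381% of its cells. In *Apln*-positive ECs the shares were 5.13 and 4.69% in WT and 19.8 and 13.4% in KO, and the thinned WT2 share of 0 of 63 cells allows up to 4.76%. *Cxcl12* was near saturation, with a UMI in 88.3 to 96.3% of ECs, and in *Apln*-positive ECs its mean share was 93.0% in WT and 92.3% in KO although its level rose. The *Cxcl12* shares were 11.1 to 23.0% of microglia and 8.79 to 17.5% of B cells, which had median depths of 3490 to 6265 and 2130 to 3658 UMIs. *Ackr3* was found in 26.5 to 38.0% of ECs and in 1.89 to 5.49% of microglia, and its EC shares overlapped between the genotypes. Its mean share was 52.8% in venous and 23.6% in capillary ECs, against the order of the levels. Over 24 pairs of gene and class, 9 had shares that did not overlap between the genotypes. A random split of the mice into 2 against 2 separates the groups with a probability of 0.33, the smallest permutation p above. The same count over all genes was not made, and the 9 are not read as a change. Intervals and limits cover counting error only.

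Ligand and receptors were also counted in the same cell. *Cxcl12* and *Cxcr4* were found together in 378 ECs, where independent detection within each mouse would give 379. In *Apln*-positive ECs the pair was found in 102 cells against 116 from independence, and after thinning in 29 against 39.6. *Cxcl12* and *Ackr3* were found together in 4435 ECs against 4368. The 2 receptors met more often than independence gives, in 208 ECs against 134, and in 102 arterial ECs against 54.0. After thinning these were 31 against 20.0 in all ECs and 16 against 6.30 in arterial ECs, but 5 against 5.17 in capillary ECs. Cells share library and depth, and these counts are descriptions without a test.

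Mural cells, the pericytes and smooth muscle cells around the endothelium, gave more *Cxcl12* in KO mice (752, 720, 2963 and 2350 CPM in WT1, WT2, KO1 and KO2, log2 fold change 1.75, SE 0.23, adjusted p = 0.00958, edgeR) and more *Cxcr4* (2.68, SE 0.38, adjusted p = 0.0150, edgeR), where 1.85% of 11380 genes passed. *Ackr3* did not pass (-0.40, normal 95% interval -0.77 to -0.02, unadjusted p = 0.0667, adjusted p = 0.344, edgeR). The mix of the class differed between the genotypes. Pericytes were 73 of 326 and 147 of 337 mural cells in the WT mice and 172 of 224 and 210 of 402 in the KO mice, and *Cxcl12* was at 1518, 1278, 3350 and 3587 CPM in pericytes and 560, 429, 1404 and 915 CPM in smooth muscle cells. In pericytes alone the rise of *Cxcl12* was 1.28 (adjusted p = 9.11e-05, edgeR), and in smooth muscle cells it was 1.13 and did not pass (adjusted p = 0.224, edgeR). EC RNA was present in this class. The 7 endothelial markers summed to 4908 to 7394 CPM in mural cells, and 871 of the 1289 cells held a UMI of *Cldn5*, *Flt1* or *Pecam1*. The 418 cells (32.4%) without one held 160 of the 26192 *Cxcl12* UMIs (0.611%) and 6 of the 186 *Cxcr4* UMIs (3.23%), but 400 of the 1992 *Ackr3* UMIs (20.1%). They were shallower, with median depths of 3956 to 6157 UMIs against 6974 to 18117 in the 871. Their part of all mural UMIs is therefore smaller than 32.4%.

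In those 418 cells *Cxcl12* was at 56.7, 71.5, 85.7 and 87.5 CPM, and the difference between the genotypes did not pass (log2 fold change 0.36, SE 0.28, adjusted p = 0.973, edgeR). *Ackr3* in the same cells was at 161, 243, 166 and 146 CPM, as high as in mural cells as a whole. *Cxcr4* in pericytes gave 1 UMI in the WT mice and 153 in the KO mice, and went with *Apln*. The 75 pericytes with an *Apln* UMI, 73 of them from KO mice, held 141 of the 154 pericyte *Cxcr4* UMIs (91.6%), and 1 cell of KO1 held 42. Pericytes without EC UMIs, 153 cells, held 0, which in the single mice allows 19.5 to 36.6 CPM. With cells holding *Apln* UMIs left out, the mural difference in *Cxcr4* was 0.71 (SE 0.50, adjusted p = 0.649, edgeR). The calls for both genes also ended without WT1 (adjusted p = 0.416) or WT2 (adjusted p = 0.528), where edgeR called 0 genes and 1383 and 1090 had an unadjusted p under 0.05.

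**Figure D4:**
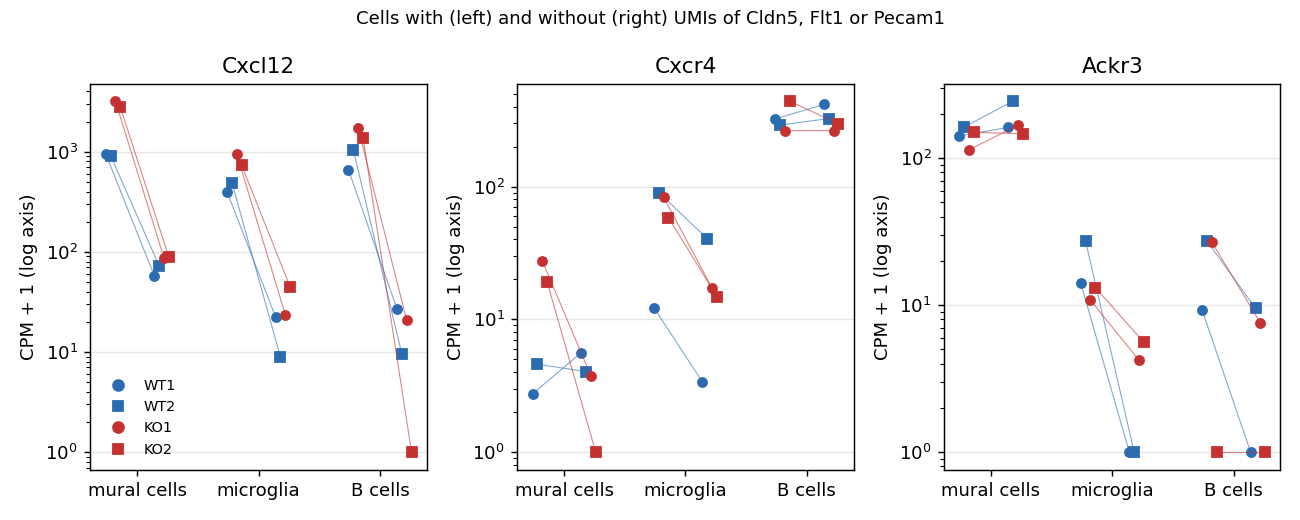
Level in CPM + 1 on a log axis (y) in cells with (left point) and without (right point) UMIs of *Cldn5*, *Flt1* or *Pecam1*, joined for each mouse, in 3 classes (x). *Cxcl12* was far lower in the cells without them in every class and mouse, while *Ackr3* of mural cells (146 to 243 CPM) and *Cxcr4* of B cells (263 to 414 CPM) were not.

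In microglia *Cxcl12* was at 230 and 248 CPM in WT and 452 and 434 CPM in KO (log2 fold change 0.83, SE 0.15, adjusted p = 0.0496, edgeR, 0.254% of 9054 genes passed). The 503 microglia without EC UMIs, of 907, held 52 of 1637 *Cxcl12* UMIs (3.18%), at 21.3, 7.90, 22.6 and 43.5 CPM, too few to be tested, and the call ended when WT1, WT2 or KO1 was left out. The same cells without EC UMIs held 37 of 177 *Cxcr4* UMIs (20.9%), at 2.37, 39.5, 16.1 and 13.7 CPM. *Cxcr4* in microglia was not shown to change (0.31, 95% interval -0.77 to 1.38, adjusted p = 0.939, edgeR). Its value turned on the WT mice, at 2.48 (adjusted p = 0.0383) without WT2 and -0.60 (adjusted p = 0.345) without WT1.

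In B cells *Cxcr4* was not shown to change (log2 fold change -0.14, 95% interval -0.68 to 0.40, adjusted p = 0.996, edgeR). There 0 of 3869 genes passed (0%) in edgeR, 218 had an unadjusted p under 0.05, and DESeq2 called 0, with 34 under 0.05 unadjusted. B cells without EC UMIs (134 of 274) held *Cxcr4* at 263 to 414 CPM, with UMIs in 25% to 55.6% of cells, but 6 of the 852 *Cxcl12* UMIs (0.704%). B-cell *Cxcl12* did not pass (0.90, SE 0.24, adjusted p = 0.509, edgeR).

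The pathway list held 28 other genes, among them further ligands, proteases that cut CXCL12, heparan sulfate enzymes, G proteins and regulators of receptor desensitisation. In KO against WT ECs, 22 were tested, 4 were higher and 1 was lower, and 17 did not pass, where 5.88% of all genes passed. Those that rose were *Pik3cg*, a catalytic subunit of the PI3-kinase that G proteins switch on (log2 fold change 2.78, SE 0.51), *Gnai1*, an inhibitory G protein subunit (2.13, SE 0.42), *Adm*, adrenomedullin, a peptide that ACKR3 also takes up (1.89, SE 0.33), and *Ext1*, which elongates heparan sulfate (1.16, SE 0.22). *Sdc4*, a heparan sulfate proteoglycan, fell by 0.68 on the log2 scale (SE 0.15). The median over the tested list was 0.10 against -0.02 over all genes.

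*Apln*-positive against other ECs gave 10 higher and 0 lower of 22 tested, where 10.5% of all genes passed. *Adm* (3.15, SE 0.20), *Pik3cg* (3.11, SE 0.33), *Gnai1* (2.79, SE 0.23) and *Mmp14*, a membrane protease that can cut CXCL12 (2.75, SE 0.46), changed most. The median was 0.26 against 0.01 over all genes. Cluster 4 against capillary ECs gave 10 higher and 2 lower of 21, where 25.6% of all genes passed, and the median was 0.13 against -0.01 over all genes. The highest were *Mmp14* (4.18, SE 0.65), *Adm* (3.52, SE 0.16), *Gnai1* (3.50, SE 0.23) and *Pik3cg* (2.65, SE 0.41). *Dpp4*, the peptidase that inactivates CXCL12 (-0.90, SE 0.14), and *Itch*, a ubiquitin ligase that sends CXCR4 to degradation (-0.33, SE 0.13), were lower. In arterial, capillary and venous ECs taken alone, edgeR called 0 of the 20 list genes tested between the genotypes, and 4, 5 and 1 had an unadjusted p under 0.05. Over all genes 0.956%, 1.08% and 0.363% were called, and 1233 of 11299, 1004 of 11342 and 964 of 10195 were under 0.05 unadjusted.

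**Figure D5:**
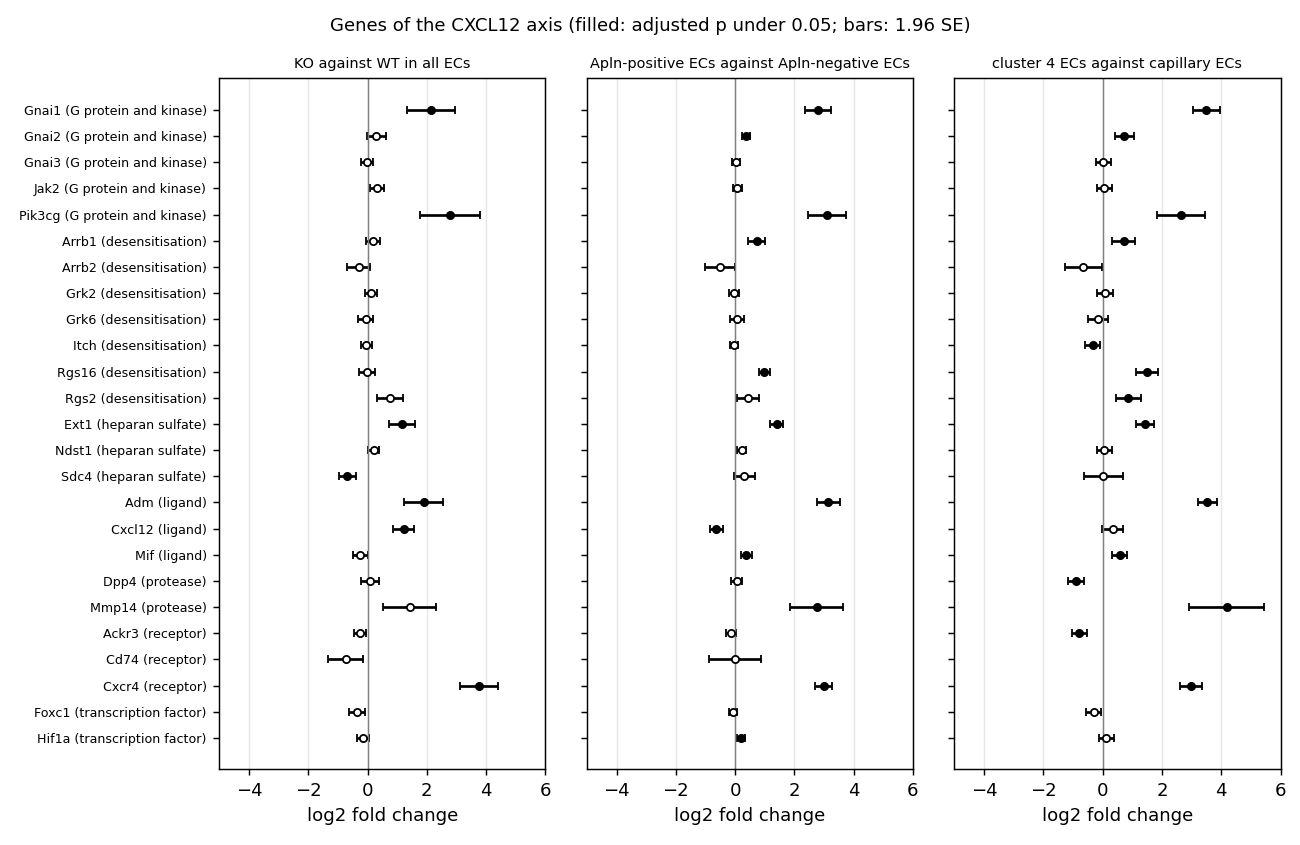
Log2 fold change (x) with bars of the normal 95% interval for the genes of the CXCL12 pathway list (y, with their role) in 3 comparisons. Filled points passed the adjusted p of 0.05 in edgeR. *Adm*, *Gnai1*, *Pik3cg*, *Ext1* and *Cxcr4* were higher in all 3, and *Ackr3* in none.

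Over the 28 sums of 7 classes in 4 mice, the genes whose log2 levels were most like those of each member, among 9103 genes with a mean of at least 10 CPM, were as follows. For *Cxcl12* they were *Itpkb* and *Mfsd2a* (Pearson r of 0.952 each), *Efr3b* (0.944), *Macf1* (0.937) and *Ism1* (0.926). *Mfsd2a* encodes the lipid transporter of the blood-brain barrier. For *Cxcr4* they were *Arpc5* (0.906), *Hcls1* (0.873), *Actr3* (0.866), *Akap13* (0.865) and *Rcc2* (0.860), among them 2 subunits of the actin-nucleating ARP2/3 complex. For *Ackr3* they were *Tns2* (0.972), *Tead1* (0.953), *Cbx6* (0.952), *Mpdz* (0.948) and *Ttll7* (0.948). The sums share mice and libraries, and the order of genes is a description.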

How the data were processed

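Vascular fragments were isolated from mouse brain tissue with collagenase and PECAM1 beads, and 10x Genomics 3′ libraries were made, 1 per mouse. Per the labels, the authors aligned and counted reads with Cell Ranger 6.1.2 on mm10. The deposited values are raw UMI counts per gene and barcode, with strand taken into account and isoforms not told apart. No per-sample column was left unused (0).

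Cells with over 500 genes and under 10% mitochondrial UMIs were kept, 17999 in all, with 31753395 to 42903731 UMIs per library, and doublets were not removed. They were clustered with Seurat 5.3.0 in R 4.3.3 on 2000 variable genes and 50 principal components, at a resolution of 0.2 for all cells and 0.4 for ECs, without the genes of the CXCL12 pathway, stress-response genes and sex-linked genes. Clusters were named from 133 marker genes with at least 3 detected. The cluster called cluster 4 is the one with the highest mean scaled level over 103 of the marker genes the study lists for its own, a list chosen on these samples from which the pathway genes were left out.

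UMIs were summed per mouse and class and tested with edgeR 4.0.16 (quasi-likelihood test, filterByExpr, TMM, Benjamini-Hochberg over all genes tested, 0.05 on the adjusted p). The study tested single cells, which are not replicates. The p-values of KO against WT measure the spread between 2 mice a group. Those that compare classes within a mouse, and the interaction terms, measure the spread of differences within 4 mice, or within the 2 KO mice for cluster 4. In all of these edgeR shares the spread over genes, so an SE can be smaller than the spread of a single gene over so few mice. Fold changes are those of edgeR and their 95% intervals are normal ones from the SE. With so few mice these intervals are narrower than the test implies. Such an interval can leave out 0 where the unadjusted p is over 0.05. Shares have exact binomial intervals and a two-sided exact permutation test. Levels are CPM without TMM factors. Shares were also computed in cells thinned to 2000 UMIs, with the classes of the full counts. Tests in thinned cells drew the *Apln* classes from the thinned counts instead. Likeness used log2(CPM + 1). In simulated counts of the comparison of genotypes in all ECs (13341 genes), 70.7% of genes changed 2-fold and 93.9% of those changed 4-fold were recovered. In B cells (3542 genes) these were 29.4% and 87.2%. False calls in the same simulations numbered 23 in all ECs, where 99 genes were changed 2-fold, and 2 in B cells. They numbered 16 in arterial, 5 in capillary, 7 in venous and 14 in *Apln*-positive ECs, 19 in mural cells and 13 in microglia. The threshold thus let false calls through, and the *Cxcl12* calls in arterial ECs and microglia lie just under it. DESeq2 1.42.0, other normalization, filters, clusterings and left-out mice were the alternatives. The 6 selections of cells by UMIs of other classes or by cluster 4, the difference of the *Apln* contrast between genotypes and the crossed pairing were added after seeing the data.

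Named genes were the 3 members, the called genes of the pathway list (31 listed, 30 matched) in 3 comparisons, at most 4 per direction, and the 5 genes most like each member. Members and lists were chosen with earlier results of these data known. Staining and qPCR were not analysed here. Drawing used matplotlib 3.10.9.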

Additional observations from a re-analysis of the deposited data

Results flagged for a closer look

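The *Apln*-positive against *Apln*-negative difference within a mouse was not the same size in the 2 genotypes, by an interaction term added after seeing the data (edgeR, 1.89% of 11299 genes passed). For *Cxcr4* the KO difference exceeded the WT difference by 1.92 on the log2 scale (SE 0.50, adjusted p = 0.0122). For *Cxcl12* it exceeded it by 0.65 (SE 0.11, adjusted p = 1.97e-06), since the WT difference was the more negative. In WT1, WT2, KO1 and KO2, *Cxcl12* was at 1463, 686, 3670 and 3743 CPM in *Apln*-positive and 2094, 1763, 5041 and 4478 CPM in *Apln*-negative ECs. As a ratio, the difference was widest in WT2, while that of WT1 was close to that of KO1. The small SE comes from a spread that the model shares over genes. For *Ackr3* it was lower by 0.49, with a value of -0.49 (SE 0.15, adjusted p = 0.0470), and the contrast was above 0 in both WT mice and below 0 in both KO mice. The WT side rests on 39 and 64 cells, with 4 and 3 *Cxcr4* UMIs. Cluster 4 held 14 of these WT cells and 478 of the 712 KO cells, and the part of that in the difference was not tested.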

How the results depend on the processing

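Of 463 values of the 3 genes under other settings, 393 kept their direction and their side of the threshold, 40 lost the call, 19 gained one and 11 changed sign. Finer EC clustering could not change the classes of all ECs, *Apln*-positive ECs and *Apln*-negative ECs. Its values there repeat the reported ones and are among those counted as kept. *Cxcr4* passed in all ECs under all 14 settings, the reported one included (2.46 to 4.18) and in arterial ECs under all 13 (2.20 to 2.86). *Cxcl12* passed in all ECs under 13 of 14, but in arterial ECs under 7 of 13 and in capillary ECs under 4 of 14. The causes of the changes below were not tested, and depth limits *Cxcr4* most, with 253 UMIs in arterial, 72 in capillary and 10 in venous ECs.

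With 1 mouse left out, the lone mouse of a group is taken to vary like the others. The genes called between the genotypes ranged from 124 (without WT2) to 1533 (without KO2) in all ECs, 180 to 467 (without WT1) in arterial, 6 (without WT2) to 235 (without KO2) in capillary, 37 to 811 (without WT1) in venous and 0 (without KO1 or KO2) to 1177 in *Apln*-positive ECs, 0 (without WT1 or WT2) to 1394 (without KO2) in mural cells, 31 to 170 (without KO2) in microglia and 0 to 24 (without KO2) in B cells. Those counts were 2324 (without WT2) to 3984 for venous against capillary ECs, 208 (without KO2) to 1613 for *Apln*-positive against *Apln*-negative ECs, and 2 to 273 (without KO2) and 9 to 61 (without KO1) for the arterial and venous differences of the KO effect. *Cxcl12* ranged from 1.07 to 1.39 in all, 0.47 to 0.68 in arterial, 1.13 to 1.33 in venous and 1.32 to 2.46 in *Apln*-positive ECs, 1.60 to 1.91 in mural cells, 0.80 to 0.87 in microglia and 0.64 to 1.24 in B cells. *Cxcr4* ranged from 2.42 to 2.94 in capillary and 3.53 to 4.94 in *Apln*-positive ECs, 2.29 to 2.97 in mural cells, -0.60 to 2.48 in microglia and -0.43 to 0.25 in B cells, where it also stood at 0.00066 without WT1. *Ackr3* in *Apln*-positive ECs ranged from -0.77 to -0.68. *Cxcl12* between arterial and capillary ECs ranged from -0.061 to 0.011. The arterial difference of the KO effect ranged from -0.16 to -0.0055 for *Cxcl12*, -0.50 to 0.16 for *Cxcr4* and 0.37 to 0.66 for *Ackr3*, and the venous one from 0.50 to 0.71 for *Cxcl12*. Shares that did not overlap numbered 14 to 18 of 24. A lone mouse falls outside the range of 2 others more often than 2 mice separate from 2, so this count cannot be set against that of all mice.

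Same-numbered mice share a sex, and the deviations of the WT and KO mice of 1 number went against each other (Pearson r -0.134 over 13523 genes), so the numbers were not taken as pairs. The cells came from separate experiments, and which mice were in which is not given in the sources used here, so a part of the experiment in these values was not tested, and sex and number cannot be told apart. With the replicate number as a block, 1326 genes were called in all, 338 in capillary and 9 in venous ECs and 183 in microglia, and *Cxcl12* was 0.57 in arterial, 0.64 in capillary (now passing) and 1.23 in venous ECs. The block changed no other call of the 3 genes, and with the pairing crossed 1106 genes were called in all ECs.

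With DESeq2, 16 genes were called in venous and 548 in *Apln*-positive ECs, 2145 and 2250 for arterial and venous against capillary ECs, 366 for *Apln*-positive against *Apln*-negative ECs, 444 for cluster 4, 245 within it and 3 for the venous difference. *Cxcl12* was then 0.64 in capillary ECs (passing) and -0.63 in *Apln*-positive against *Apln*-negative ECs, *Ackr3* -0.73 in *Apln*-positive ECs and *Cxcr4* -1.43 in venous against capillary ECs. DESeq2 gave no adjusted p for *Cxcr4* in cluster 4. Without a filter on low counts, 179, 310, 109 and 1365 genes were called in arterial, capillary, venous and *Apln*-positive ECs, 237 in microglia, 20 in B cells, and 64 and 25 for the 2 differences, and *Cxcl12* passed in capillary ECs (0.64), B cells (0.85) and cluster 4 (0.36). RLE normalization gave 11 calls for the venous difference.

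With finer clustering, *Cxcl12* was 0.47 in arterial and 0.65 in venous ECs, *Cxcr4* -1.42 between venous and capillary ECs and *Ackr3* -0.36 within cluster 4. With stress and sex-linked genes kept in the clustering, 32 arterial, 12 venous and 18 arterial-difference genes were called, and *Cxcl12* was 0.44 in arterial and 1.03 in venous ECs and -0.43 between arterial and capillary ECs, and *Ackr3* -0.32 within cluster 4. With ECs holding leukocyte UMIs left out, 180 arterial and 11 venous-difference genes were called, and the differences were 0.090 (arterial) and 1.58 (venous) for *Cxcr4* and 0.16 (venous) for *Ackr3*. With *Apln*-positive cells kept in the zones, 19 venous and 5 arterial-difference genes were called, *Cxcl12* was 0.60 in arterial ECs and the venous difference of *Ackr3* 0.13. With cluster 4 joined to capillary ECs, 743 capillary genes and 688 and 371 genes of the differences were called, *Cxcl12* was 0.97 and *Ackr3* -0.52 in capillary ECs, -0.21 and -0.22 between arterial and capillary ECs and -0.41 and 0.83 for the arterial difference, and the venous difference of *Ackr3* was 0.26. With cluster 4 and *Apln*-positive ECs left out, 238 genes were called in all ECs.

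With at least 3 *Apln* UMIs, 388 genes were called between the genotypes and 2460 against *Apln*-negative ECs, with *Ackr3* at -0.66 and -0.40. In cells thinned to 2000 UMIs, with the *Apln* classes drawn anew, 0, 204 and 174 genes (the last within cluster 4) were called. *Cxcl12* was then at 0.65 and -0.55, *Cxcr4* at 2.38 and *Ackr3* at -0.85. Among mural cells, 637 genes were called in pericytes, where *Ackr3* was 0.082 and the fitted *Cxcr4* value 5.23 (1 UMI in WT), and 0 in smooth muscle cells (541 at an unadjusted p under 0.05), where *Cxcl12* was 1.13. With EC UMIs left out, 3 mural genes were called and *Cxcl12* was 0.36, and with *Apln* UMIs left out, 104 were called and *Cxcr4* was 0.71. Cluster 4 has no fit with 1 mouse left out, since 1 KO mouse leaves no residual spread.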

Other observations

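Fenestrated ECs, marked by *Plvap*, held *Ackr3* at 198 and 219 CPM in WT1 and WT2 and 184 and 146 CPM in KO1 and KO2, and *Cxcl12* at 918, 826, 958 and 1071 CPM. Their *Cxcr4* was at 13.3, 3.29, 14.3 and 15.1 CPM, from 76 UMIs in all. T or NK cells, 84 in all, held *Cxcr4* at 28.7 and 42.9 CPM in the WT mice and 153 and 76.2 CPM in the KO mice, from 34 UMIs. *Cxcl12* UMIs in these cells numbered 133 and 54 in the WT mice and 3 and 1 in the KO mice. No test was run on these classes.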
